A study of Mus musculus with 140 samples.

Results

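The angiopoietin, Tie and VEGF signalling genes described here are 10 of the 34255 genes in the count table, taken by their gene symbols. They are 4 ligands (Angpt1, Angpt2, Vegfa and Vegfc) and 6 receptors or co-receptors (Tek, Tie1, Kdr, Flt1, Flt4 and Nrp1), and all 10 were found. Their RNA was measured by sequencing the 3′ ends of transcripts in kidneys of 28 male wild-type mice of the strain C57BL6/OlaHsd, whose age the labels do not give. From each mouse, glomeruli, arterioles, post-capillary venules and peritubular capillaries were cut out by laser microdissection, and whole kidney was read without microdissection, which gave 140 libraries. Mice were healthy (time 0 h), or had been operated on 4, 24 or 72 h earlier, either as sham mice or with cecal ligation and puncture (CLP), in which the cecum is tied off and pierced so that gut bacteria cause sepsis. Each of these 7 groups held 4 mice, so n = 4 stands behind every group value below, and no mouse carried a transgene or a deletion. Except in comparisons between compartments, the p-values measure the spread between libraries of different mice. Differences between mice and between the samples taken from them are not separated in that spread. Comparisons between compartments take out the differences between mice, and their p-values measure the spread that remains.

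Angiopoietin-1, made mainly by pericytes and other supporting cells, activates the endothelial receptor Tie2, the product of Tek, and keeps vessels quiet and tight. Angiopoietin-2, made by endothelium, competes with it, and Tie1 is a relative of Tie2 that shapes its signal. VEGF-A, which podocytes make in the glomerulus, acts on endothelium through VEGFR2 (Kdr), while VEGFR1 (Flt1) binds it tightly with a weaker signal and also exists as a soluble form, and neuropilin-1 (Nrp1) is a co-receptor. VEGF-C and its receptor VEGFR3 (Flt4) serve mainly lymphatic vessels and also some fenestrated blood capillaries. Counts per gene do not separate the soluble from the membrane form of Flt1.

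Libraries held 4.24 to 18.3 M counts (M for mega), and values are given as CPM, counts per M counts of the scaled library total. The number of genes with a count was 17604 to 20474 in whole kidney, and as low as 2949 to 5595 in the peritubular capillaries of CLP mice at 72 h. Across the members, the share of values with no count was 0% in whole kidney at 0 and 4 h and 0.625% at 24 and 72 h. In the microdissected libraries it was 2.5% at 0 and 4 h and 23.8% at 24 and 72 h in arterioles, 5% and 13.1% in glomeruli, 10.8% and 40.6% in peritubular capillaries and 6.67% and 16.2% in venules. The fitted biological coefficient of variation was 0.241 in whole kidney, against 1.92 in arterioles, 1.40 in glomeruli, 1.94 in peritubular capillaries and 1.58 in venules. Summed CPM of 14 endothelial marker genes in healthy mice was 5593 to 6728 in glomeruli and 3708 to 5538 in arterioles, but 352 to 1615 in peritubular capillaries, where 8 proximal tubule markers summed to 66859 to 119523 CPM.

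In the healthy kidney the receptors were spread unevenly over the vessels. Kdr and Nrp1 were highest in glomeruli, Vegfa was also highest there, and Tie1 was highest in arterioles, the compartment with the least Kdr. These values come from a fit of the 16 microdissected libraries of the healthy mice, with the mouse as a block, in which each compartment was tested against the mean of the 3 others. Their CPM are scaled over these 16 libraries, while every later CPM is scaled over the 28 libraries of its compartment, so a library has a different value on each scale. In these data fewer endothelial cells in a sample and less RNA of a gene per cell cannot be told apart.

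Kdr, the main signalling receptor of VEGF-A, stood at 1251, 848, 1387 and 1359 CPM in the glomeruli of the 4 healthy mice. It stood at 184, 91.5, 154 and 411 CPM in peritubular capillaries, at 36.4, 139, 312 and 144 CPM in venules and at 75.1, 5.55, 139 and 5.34 CPM in arterioles. Every glomerular value lay above every value elsewhere. The log2 difference of glomeruli from the other compartments was 3.48 ± 0.50 (SE; adjusted p = 3.27e-05, edgeR quasi-likelihood test with Benjamini-Hochberg adjustment). Arterioles lay below the others by a log2 difference of -3.00 ± 0.69 (adjusted p = 0.00473), which missed the threshold without healthy mouse 2 (-2.47, adjusted p = 0.127). Of all genes, 4.18% passed for glomeruli and 7.32% for arterioles.

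Nrp1 stood at 1278, 1426, 1289 and 1338 CPM in glomeruli of healthy mice, with no value above 386 CPM in the other compartments. It was higher in glomeruli by 2.85 ± 0.35 on the log2 scale (edgeR adjusted p = 1.2e-08). Of the pairwise comparisons between compartments, those of glomeruli with each other compartment passed for Kdr and for Nrp1, and no pairwise comparison passed for any of the 8 other members. In these pairwise comparisons 2% of all genes passed against arterioles, 4.89% against peritubular capillaries and 1.55% against venules. In the other pairs 9.23% passed for arterioles against peritubular capillaries, 4.2% for arterioles against venules and 0.583% for peritubular capillaries against venules. Nrp1 in arterioles (29.9 to 386 CPM) was below the mean of the others by -1.34 ± 0.43 (adjusted p = 0.0385), a call that held without mouse 4 but was lost without mouse 1 (0.117), mouse 2 (0.27) or mouse 3 (0.0959), with other size factors (0.101), without a filter on low counts (0.0825) and without the mouse block (0.0613).

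Vegfa, the podocyte ligand, stood at 125, 276, 288 and 203 CPM in healthy glomeruli and at 57.1 to 84.4 CPM in peritubular capillaries. It stood at 1.39 to 122 CPM in arterioles and 6.05 to 45.0 CPM in venules, so the lowest glomerular value was close to the highest arteriolar one. Glomeruli were higher by 2.52 ± 0.76 on the log2 scale (edgeR adjusted p = 0.0418). The call was lost without mouse 2 (2.15, adjusted p = 0.164), mouse 3 (2.32, 0.248) or mouse 4 (2.72, 0.0963). Summed CPM of 10 podocyte markers was 10928 to 12780 in glomeruli and at most 1782 in the other compartments of healthy mice.

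Tie1 stood at 111, 538, 125 and 389 CPM in arterioles of healthy mice, at 73.5 to 135 CPM in glomeruli, 1.32 to 99.1 CPM in peritubular capillaries and 12.4 to 83.0 CPM in venules. Arterioles exceeded the others by 2.60 ± 0.74 on the log2 scale (edgeR adjusted p = 0.0157), with the 2 highest values in mice 2 and 4. Without mouse 2 the difference was 2.17 (adjusted p = 0.2) and without mouse 4 it was 1.68 (0.17). Arterioles and glomeruli, neighbours in the order of levels, overlapped.

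The 6 other members had no compartment that passed, against 6.13% of all genes for peritubular capillaries and 0.591% for venules. Angpt1 was found in every healthy venule sample (11.4 to 23.1 CPM) and was near 0 in glomeruli (0 to 1.63 CPM) and peritubular capillaries (0 to 0.556 CPM), with 0.108 to 39.9 CPM in arterioles, and its venule difference of 5.40 ± 1.86 gave an edgeR adjusted p of 0.238. Angpt2 stood at 5.95 to 26.4 CPM in glomeruli, 0.117 to 16.9 CPM in venules and 0.111 to 0.565 CPM in peritubular capillaries. In arterioles a single mouse held 226 CPM of Angpt2 and the 3 others at most 0.411 CPM. Flt1 stood at 305 to 488 CPM in glomeruli, 199 to 356 CPM in arterioles, 156 to 324 CPM in venules and 122 to 217 CPM in peritubular capillaries. Tek ran from 41.8 to 170 CPM in arterioles and from 0.377 to 42.5 CPM in peritubular capillaries, Flt4 from 10.03 to 97.3 CPM in arterioles and from 0 to 3.58 CPM in peritubular capillaries, and Vegfc from 0 to 62.1 CPM in arterioles with at most 3.04 CPM elsewhere.

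**Figure D1:**
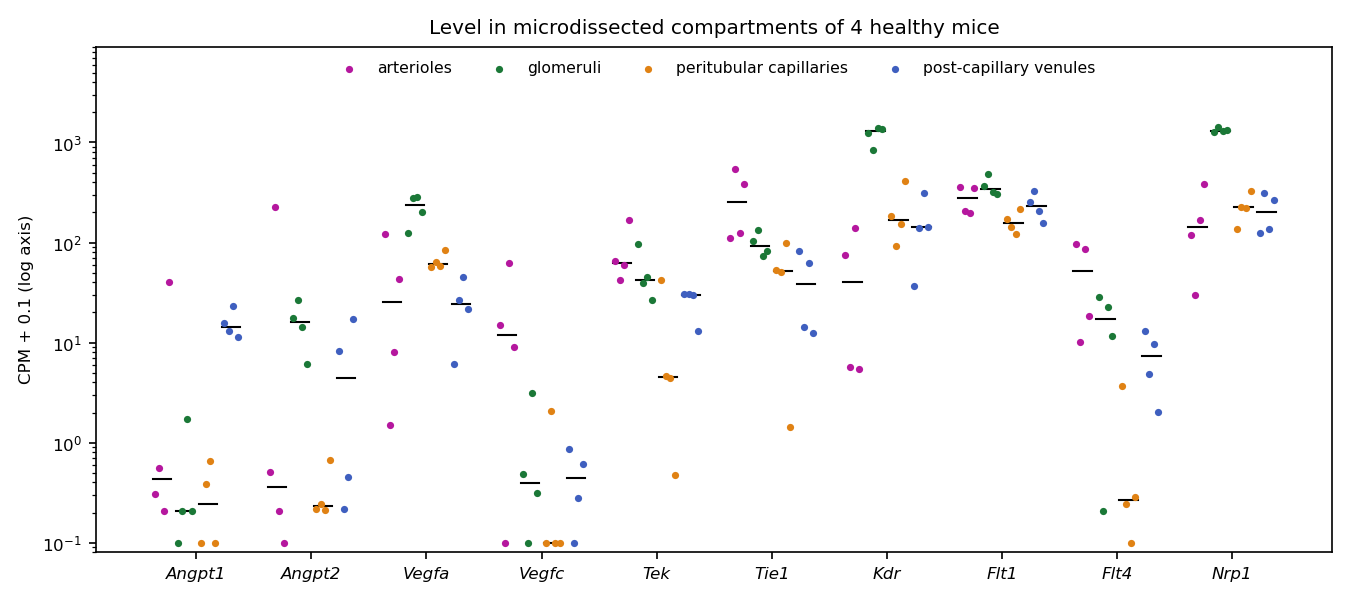
Level of each member in the 4 microdissected compartments of 4 healthy mice, in CPM on a log axis with 0.1 CPM added, 1 point per mouse and black lines at the medians. Glomerular values of Kdr (848 to 1387 CPM) and Nrp1 (1278 to 1426 CPM) lie above all values of the other compartments.

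After CLP, Kdr was the only member that passed in whole kidney. It fell at 4 h, with CLP mice at 88.4 ± 15.0 CPM (SD) and sham mice at 136 ± 13.0 CPM, and showed no such gap at 72 h. Flt1, the other main VEGF-A receptor, lay on the opposite side, higher in all CLP mice than in all sham mice at 4 and 24 h, without passing. The ligands, Tek, Tie1, Flt4 and Nrp1 did not pass at any time. All 28 whole-kidney libraries were fitted together with edgeR and 14936 genes were tested, among them 9 members, since Vegfc (0 to 1.66 CPM, at most 17 counts in a library) was removed by the filter on low counts.

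Kdr (VEGFR2) lies on the reverse strand of chromosome 5 at 75932827 to 75978458 in build GRCm38. In whole kidney it stood at 117, 147, 162 and 191 CPM in healthy mice. At 4 h it stood at 127, 128, 135 and 155 CPM in sham mice and at 70.5, 86.6, 89.8 and 107 CPM in CLP mice. All 4 CLP mice lay below all sham mice and below all healthy mice. The log2 fold change was -0.62 ± 0.14 (SE; adjusted p = 0.00688, edgeR quasi-likelihood test with Benjamini-Hochberg adjustment). Kdr was the 1 called member of 9 tested, while 2.24% of all genes tested were called, 0.556% in the lower direction. Across the alternatives the log2 fold change ran from -0.74 to -0.54, and the call was lost only when CLP mouse 1 was left out (-0.54, adjusted p = 0.052). Values of CLP and sham mice did not overlap for 2 members at 4 h, Kdr and Flt1, and for 7.73% of all genes.

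Beside this change, summed CPM of the 14 endothelial markers in whole kidney at 4 h was 514 to 584 in CLP mice and 529 to 602 in sham mice. Of the 13 endothelial markers tested, 1 rose (Esam, an adhesion molecule of endothelial junctions, log2 0.64, edgeR adjusted p = 0.0133) and 1 fell (Ehd3, an endocytic protein enriched in glomerular endothelium, log2 -0.82, adjusted p = 0.00641). Neutrophil markers moved with CLP as well, with 8 genes summing to 81.4 to 157 CPM in CLP mice and 8.36 to 25.0 CPM in sham mice at 4 h. Their part in the result was not tested.

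At 24 h Kdr stood at 140, 166, 173 and 175 CPM in sham mice and at 116, 128, 136 and 141 CPM in CLP mice. A single CLP mouse exceeded the lowest sham mouse, and the log2 fold change of -0.33 ± 0.14 did not pass (edgeR adjusted p = 0.192). At 72 h sham mice (166, 169, 183 and 185 CPM) and CLP mice (155, 163, 174 and 211 CPM) were interleaved, with a log2 fold change of 0.00 ± 0.14 (adjusted p = 0.997). The change with CLP differed between 72 h and 4 h by 0.63 ± 0.19 on the log2 scale (edgeR adjusted p = 0.0815), so a difference between the times did not pass. No member passed any test of a difference between times in whole kidney, where 3.09% of genes passed over the 3 times together, 1.84% for 24 against 4 h, 0.509% for 72 against 24 h and 2.52% for 72 against 4 h. At an unadjusted p under 0.05, members did appear in these tests, with Kdr and Nrp1 over the 3 times together, Kdr, Nrp1 and Tek at 72 against 4 h and Angpt2 and Nrp1 at 24 against 4 h. The share of all genes at that rule is not given, so no result is read from these members.

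**Figure D2:**
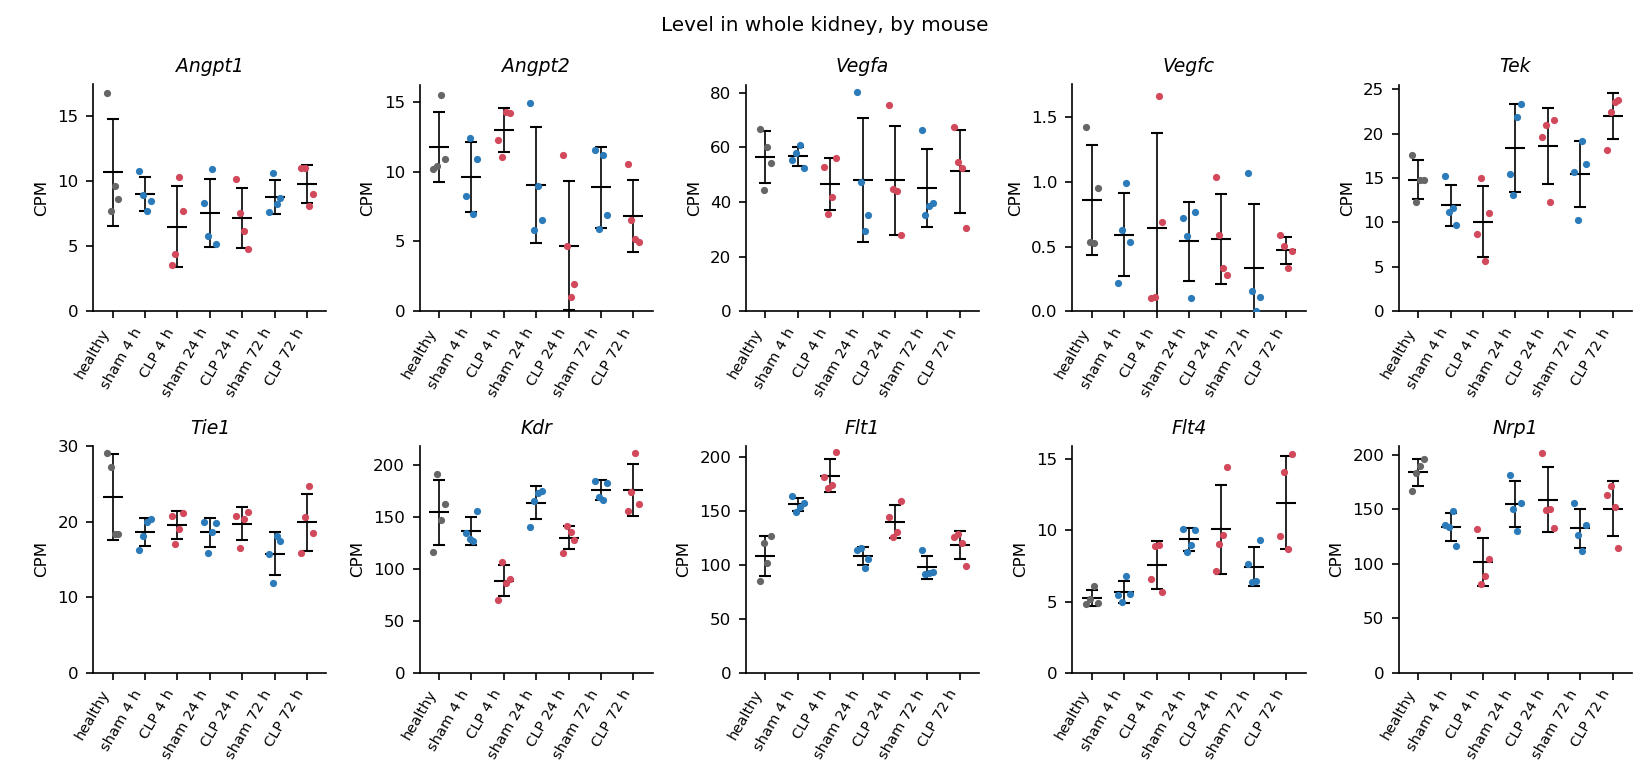
Whole-kidney CPM of each member in healthy, sham and CLP mice by time in h, 1 point per mouse, with black bars for the mean ± SD. The 4 CLP mice at 4 h lie between 70.5 and 107 CPM for Kdr, below the 4 sham mice (127 to 155 CPM), and between 171 and 204 CPM for Flt1, above them (149 to 164 CPM).

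Flt1 (VEGFR1; chromosome 5, reverse strand, 147561604 to 147726011, GRCm38) stood at 85.6, 102, 120 and 127 CPM in whole kidney of healthy mice. At 4 h sham mice were at 149, 154, 157 and 164 CPM and CLP mice at 171, 174, 182 and 204 CPM. Both operated groups lay above every healthy mouse, with CLP mice above sham mice. The log2 fold change of CLP against sham was 0.23 ± 0.12 and did not pass (edgeR adjusted p = 0.573). At 24 h sham mice were at 97.4, 106, 114 and 116 CPM and CLP mice at 126, 131, 144 and 160 CPM, again without overlap. The log2 fold change of 0.37 ± 0.12 gave an adjusted p of 0.0743 with edgeR and 0.0346 with DESeq2. Flt1 was the only member without overlap at 24 h, against 8.15% of all genes. At 72 h sham mice were at 91.5, 92.2, 93.5 and 114 CPM and CLP mice at 99.2, 121, 126 and 129 CPM, which overlapped through 1 sham and 1 CLP mouse (log2 0.28 ± 0.12, edgeR adjusted p = 0.283).

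The upstream sequences of these 2 receptor genes are shown because Kdr and Flt1 answer the same ligand and their whole-kidney values in CLP mice lay on opposite sides of the sham mice at 4 h. RefSeq promoter sequences of build GRCm38.p6 matched 8 of the 10 members, with 9 promoters in all. The 250 bases before each start are given 5′ to 3′ on the reverse strand of the chromosome, for Kdr chr5:75978456-75978705 and for Flt1 chr5:147726012-147726261. Capitals mark the letters GGGCGTGG (a GC-rich element of the kind bound by Kruppel-like factors) in Kdr, and AGGAAG (the core bound by ETS factors) and TGACGTCA (the cyclic AMP response element) in Flt1.
Kdr: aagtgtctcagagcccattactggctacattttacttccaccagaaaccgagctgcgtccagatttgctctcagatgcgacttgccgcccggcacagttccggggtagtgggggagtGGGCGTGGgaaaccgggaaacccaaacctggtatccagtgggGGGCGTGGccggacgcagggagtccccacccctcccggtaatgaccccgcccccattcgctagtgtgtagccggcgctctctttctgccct
Flt1: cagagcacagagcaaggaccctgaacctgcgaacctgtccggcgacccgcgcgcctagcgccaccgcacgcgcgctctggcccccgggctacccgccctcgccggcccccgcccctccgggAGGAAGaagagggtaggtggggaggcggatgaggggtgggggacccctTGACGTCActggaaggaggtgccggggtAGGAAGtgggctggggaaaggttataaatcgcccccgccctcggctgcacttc
Both strands were searched for these 3 motifs and 1 other, which were chosen with the sequences in view, and no match overlapped another. GGGCGTGG was found 2 times in Kdr and in no other member promoter, and 4.79% of 32851 promoters of the same length hold it. TGACGTCA was found only in Flt1 among the 9 (1.55% of all promoters), where AGGAAG was found 2 times, and AGGAAG was also in Tie1 and Nrp1 (29.5%). The hypoxia core ACGTG was in 1 of the 2 Vegfa promoters only (16.6%). A match describes these letters and shows no binding.

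Nrp1 (chromosome 8, forward strand, 128358604 to 128503363) stood at 167, 183, 189 and 196 CPM in whole kidney of healthy mice. At 4 h sham mice were at 117, 134, 136 and 148 CPM and CLP mice at 81.2, 89.1, 104 and 132 CPM. All operated mice at 4 h lay below every healthy mouse, and 3 of the 4 CLP mice lay below every sham mouse. The log2 fold change of CLP against sham was -0.40 ± 0.15 (edgeR adjusted p = 0.255). It was 0.04 ± 0.15 at 24 h (0.948) and 0.18 ± 0.15 at 72 h (0.706).

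Flt4 (VEGFR3; chromosome 11, forward strand, 49609263 to 49652739) stood at 4.86, 4.88, 5.19 and 6.11 CPM in healthy mice. At 72 h it was at 6.39, 6.45, 7.63 and 9.35 CPM in sham mice and at 8.73, 9.58, 14.1 and 15.4 CPM in CLP mice, the 2 groups overlapping through 1 mouse on each side. The log2 fold change was 0.68 ± 0.23 (edgeR adjusted p = 0.108), and at 4 h and 24 h it was 0.41 ± 0.23 (0.607) and 0.10 ± 0.22 (0.899). Lymphatic endothelial markers at 72 h summed to 49.5 to 70.9 CPM in CLP mice and 29.9 to 49.9 CPM in sham mice. Of these markers Pdpn, a membrane glycoprotein that podocytes express too, rose (log2 1.25, edgeR adjusted p = 0.000478), whereas the lymphatic regulator Prox1 gave 0.07 (adjusted p = 0.966). The list also holds Lyve1, Ccl21a, Mmrn1 and Reln, whose single values are not given. The part of the lymphatic markers in the Flt4 values was not tested.

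Tek (Tie2; chromosome 4, forward strand, 94739289 to 94874976) stood at 10.3, 15.7, 16.6 and 19.2 CPM in sham mice and 18.2, 22.4, 23.5 and 23.8 CPM in CLP mice at 72 h. Only 1 sham mouse reached the range of the CLP mice, and the log2 fold change of 0.51 ± 0.24 gave an edgeR adjusted p of 0.32. At 4 h it was -0.24 ± 0.24 (0.89), with CLP mice at 5.67 to 15.1 CPM and sham mice at 9.73 to 15.2 CPM. At 24 h it was 0.02 ± 0.24 (0.985). Tie1 (chromosome 4, reverse strand, 118471191 to 118490061) had log2 fold changes after CLP of 0.06 ± 0.17 at 4 h, 0.09 ± 0.17 at 24 h and 0.34 ± 0.18 at 72 h (edgeR adjusted p = 0.983, 0.884 and 0.412).

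Of the 9 members tested, 0 passed at 24 h with edgeR (5.28% of all genes passed), while 3 had an unadjusted p under 0.05, DESeq2 called 1 and limma 0. At 72 h 0 passed with edgeR, DESeq2 or limma (3.89% of all genes with edgeR), and 3 had an unadjusted p under 0.05 (Tek, Flt1 and Flt4). The shares of all genes at an unadjusted p under 0.05, or called by DESeq2 or limma, are not given. Member counts by these rules therefore have no background to be read against. At 72 h 8 of the 9 fold changes were positive, as were 53.7% of those of all genes, with a median log2 of 0.18 against 0.03 for all genes. No member was free of overlap at 72 h (9.67% of all genes were). Endothelial markers in whole kidney at 72 h summed to 572 to 767 CPM in CLP mice and 521 to 595 CPM in sham mice. Of these markers 11 of 13 were positive, beside the same 53.7% of all genes, and 0 were called by edgeR.

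**Figure D3:**
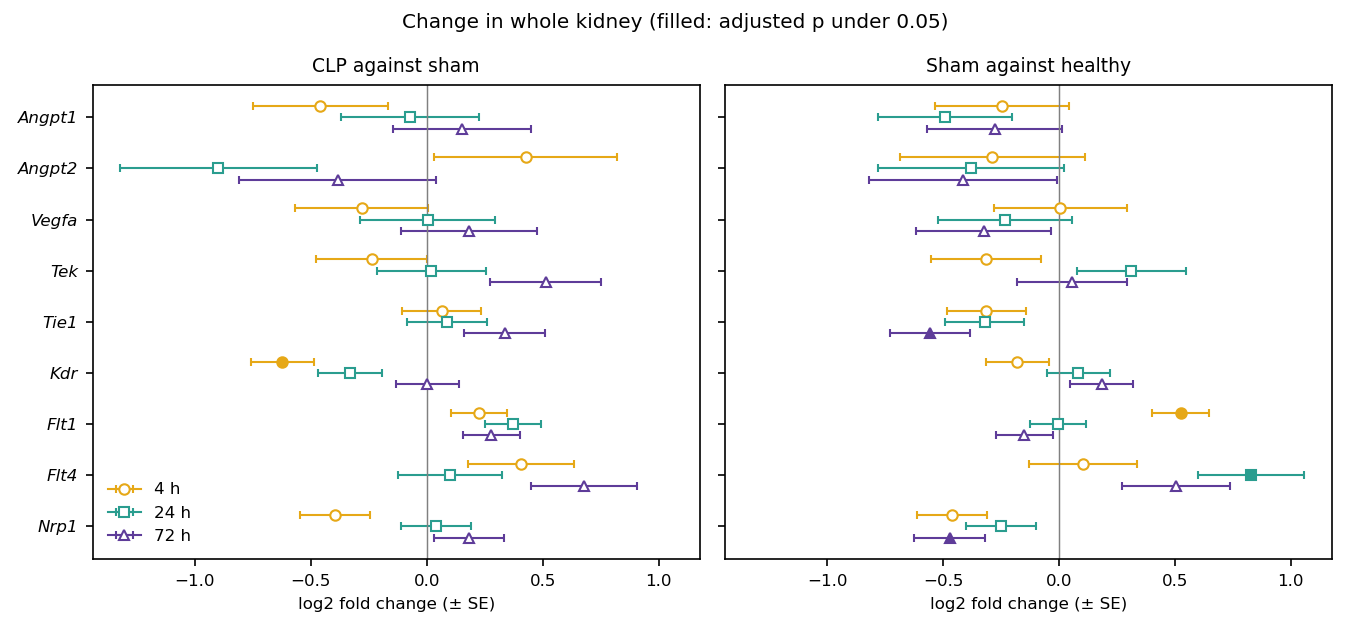
Log2 fold change in whole kidney of CLP against sham (left) and sham against healthy (right) at 4, 24 and 72 h for the 9 members tested, with bars of 1 SE from the edgeR fit and filled points where the adjusted p was under 0.05. On the left only Kdr at 4 h (-0.62 ± 0.14) is filled.

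Among the ligands, Angpt1 in whole kidney stood at 7.72, 8.59, 9.58 and 16.7 CPM in healthy mice, at 7.68, 8.48, 8.95 and 10.8 CPM in sham mice at 4 h and at 3.52, 4.41, 7.70 and 10.3 CPM in CLP mice at 4 h. The 2 lowest values of all 28 mice were CLP mice at 4 h, yet the other 2 lay within the sham range. The log2 fold changes were -0.46 ± 0.29 at 4 h, -0.07 ± 0.30 at 24 h and 0.15 ± 0.30 at 72 h (edgeR adjusted p = 0.684, 0.951 and 0.912). Angpt1 lies on chromosome 15 (reverse strand, 42424723 to 42676977) and overlaps the antisense gene Gm17473, and whether reads were counted by strand is not given in the sources used here.

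Angpt2 stood at 10.2, 10.4, 10.9 and 15.5 CPM in healthy mice. At 4 h it was at 6.94, 8.26, 10.9 and 12.4 CPM in sham mice and at 11.1, 12.3, 14.2 and 14.3 CPM in CLP mice, and at 24 h at 5.79, 6.54, 8.996 and 14.9 CPM in sham mice and at 1.00, 1.97, 4.69 and 11.2 CPM in CLP mice. At 4 h the CLP mice filled the upper end of the range, and at 24 h 3 of the 4 were below every sham mouse. The log2 fold changes were 0.43 ± 0.40 at 4 h (edgeR adjusted p = 0.871), -0.90 ± 0.42 at 24 h (0.293) and -0.38 ± 0.42 at 72 h (0.805). Without CLP mouse 1, the mouse at 11.2 CPM, the 24 h change was -1.77 with an edgeR adjusted p of 0.00324. That mouse is 1 of several that were left out, and it was picked for its value, the highest of the CLP mice. Sham mouse 1, at 14.9 CPM, was likewise the highest of its group and stayed in. No fall of Angpt2 is therefore read from this fit. Angpt2 (chromosome 8, reverse strand, 18690263 to 18741562) overlaps Mcph1 on the opposite strand.

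The ratio of Angpt2 to Angpt1 counts within a library does not depend on how libraries are scaled, and it sets the competing ligand of Tie2 against the activating one. With 0.5 added to each count, it was 1.39, 1.84, 2.49 and 3.45 in CLP mice at 4 h and 0.769, 0.904, 1.28 and 1.39 in sham mice. Healthy mice had 0.611, 1.27, 1.34 and 1.61. At 4 h no sham mouse exceeded any CLP mouse, although the lowest CLP and the highest sham value were almost equal. The mean log2 ratio was higher in CLP mice by 1.04, with a p of 0.0286 in a two-sided exact permutation test, the smallest that 4 against 4 mice allow, and an adjusted p of 0.0857 over the 3 times. At 24 h the order was the opposite, with 0.173, 0.420, 0.628 and 1.10 in CLP mice and 0.825, 1.00, 1.27 and 1.79 in sham mice, a log2 difference of -1.31 (exact permutation p = 0.0857, adjusted 0.129). Without CLP mouse 1 at 24 h the difference was -1.71 (adjusted p = 0.0429 by the exact permutation test). Its unadjusted p was the smallest that 3 against 4 mice allow, and it was adjusted beside the p-values of all mice at 4 and 72 h. This is 1 of several mice that were left out, picked for its value. At 72 h CLP mice had 0.556, 0.600, 0.649 and 0.965 and sham mice 0.562, 0.791, 1.36 and 1.504, which gave -0.53 (exact permutation p = 0.229, adjusted 0.229).

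**Figure D4:**
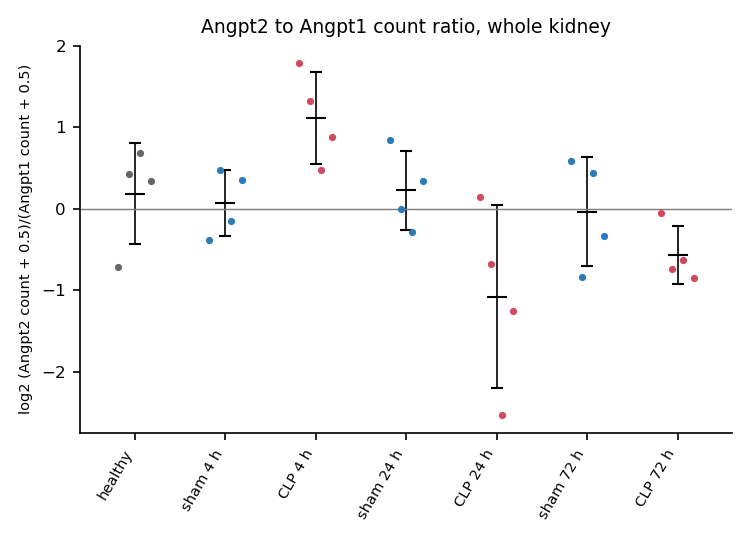
Log2 ratio of Angpt2 to Angpt1 counts in each whole-kidney library, by group and time in h, 1 point per mouse with black bars for the mean ± SD. CLP mice lie at 0.47 to 1.79 at 4 h, above the sham mice at -0.38 to 0.47.

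Vegfa (chromosome 17, reverse strand, 46016993 to 46032369) stood at 44.3, 54.4, 60.1 and 66.7 CPM in whole kidney of healthy mice. Sham mice were at 52.6 to 60.8 CPM and CLP mice at 35.5 to 56.01 CPM at 4 h, at 29.2 to 80.2 and 27.8 to 75.4 CPM at 24 h, and at 35.4 to 66.3 and 30.5 to 67.3 CPM at 72 h. The groups overlapped at each time, and the log2 fold changes were -0.28 ± 0.29, 0.00 ± 0.29 and 0.18 ± 0.29 (edgeR adjusted p = 0.895, 0.997 and 0.885). Vegfc (chromosome 8, forward strand, 54077606 to 54187096) had means from 0.334 to 0.859 CPM over the 7 groups and was not tested.

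Sham mice were also set against healthy mice, and Flt1 rose at 4 h, Flt4 rose at 24 h, and Tie1 and Nrp1 fell at 72 h. These comparisons use the same 4 healthy mice at each time and the same sham mice as the CLP comparisons. Whole-kidney libraries had 18272 to 20474 genes with a count in healthy mice, 18983 to 19638 in sham mice at 4 h, 18225 to 18816 at 24 h and 17932 to 18762 at 72 h. At 24 and 72 h the operation, the time and this difference between early and late libraries cannot be told apart. At 4 h Flt1 rose from 109 ± 18.7 to 156 ± 6.18 CPM (log2 0.53 ± 0.12, edgeR adjusted p = 0.0238), the 1 of 9 members called, against 0.937% of all genes. The call was lost without healthy mouse 1 (adjusted p = 0.175) or 3 (0.108), and without sham mouse 1 (0.103), 2 (0.0537) or 4 (0.101). Flt1 and Nrp1 did not overlap between sham and healthy mice at 4 h (6.78% of all genes), and Nrp1 had a log2 fold change of -0.46 ± 0.15 (adjusted p = 0.19).

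At 24 h Flt4 rose from 5.26 ± 0.588 to 9.39 ± 0.801 CPM, with sham mice at 8.45, 8.996, 9.996 and 10.1 CPM (log2 0.83 ± 0.23, edgeR adjusted p = 0.0299). It was the only member called, against 6.41% of all genes, and the only one without overlap (15.7%). Without healthy mouse 1, 2 or 4 the adjusted p was 0.0839, 0.0502 and 0.071, and without sham mouse 2, 3 or 4 it was 0.0526, 0.0756 and 0.0885.

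At 72 h Tie1 fell from 23.3 ± 5.73 to 15.8 ± 2.81 CPM (log2 -0.56 ± 0.17, edgeR adjusted p = 0.0438) and Nrp1 from 184 ± 12.5 to 132 ± 18.1 CPM (log2 -0.47 ± 0.15, 0.0474), 2 of 9 members against 8.44% of all genes. Tie1, Flt4 and Nrp1 did not overlap (17.7% of all genes). For Tie1 the adjusted p was 0.151 and 0.103 without healthy mouse 1 and 2, and 0.0515, 0.148, 0.075 and 0.0799 without sham mouse 1 to 4. For Nrp1 it was 0.0697, 0.068, 0.101 and 0.107 without healthy mouse 1 to 4, and 0.116, 0.163 and 0.103 without sham mouse 2, 3 and 4.

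Other genes of the pathway were counted by list in whole kidney. At 4 h after CLP, of 9 measured genes known to be induced by VEGF in endothelium, a list that also holds Flt4, 2 rose and 1 fell, with a median log2 of 0.28 against 0.00 for all genes. Rcan1, an inhibitor of calcineurin, rose from 44.3 ± 7.38 to 123 ± 28.9 CPM (log2 1.48 ± 0.23, edgeR adjusted p = 0.000216), and Adamts1, a secreted protease, rose from 38.0 ± 4.02 to 81.0 ± 16.3 CPM (log2 1.09 ± 0.17, 0.000103). Esm1, the endothelial proteoglycan endocan, fell from 21.7 ± 5.46 to 11.8 ± 2.73 CPM (log2 -0.88 ± 0.20, 0.0103). Of 16 signal transduction genes, 1 rose, Rasip1, an endothelial regulator of small GTPases, from 22.02 ± 4.87 to 62.9 ± 29.1 CPM (log2 1.51 ± 0.26, adjusted p = 6e-04), with a list median of 0.13. None of 11 other ligands, receptors and co-receptors and none of 13 hypoxia response genes passed at 4 h, when 2.24% of all genes were called.

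At 24 h after CLP, when 5.28% of all genes were called, Esm1 was the 1 of 9 VEGF-induced genes that passed and fell against sham, from 49.5 ± 14.4 to 26.1 ± 5.40 CPM (log2 -0.92 ± 0.19, edgeR adjusted p = 0.00265). Vegfd, a further ligand of Flt4, rose from 13.7 ± 3.07 to 26.8 ± 2.46 CPM (log2 0.97 ± 0.21, 0.00338), the 1 of 11 other ligands and receptors that passed. Of the 13 hypoxia response genes 2 rose, Bnip3, a mitochondrial protein of mitophagy, from 172 ± 25.0 to 390 ± 94.9 CPM (log2 1.18 ± 0.15, 1.78e-06) and Adm, the vasodilator adrenomedullin, from 10.3 ± 4.61 to 23.3 ± 4.71 CPM (log2 1.17 ± 0.28, 0.00892). The hypoxia list had a median log2 of 0.24 against 0.02 for all genes, and none of the 16 signal transduction genes passed. At 72 h no gene of the 4 lists passed with edgeR (3.89% of all genes called), with Esm1 at a log2 of -0.55 (adjusted p = 0.137).

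The genes of these lists were also compared between sham and healthy mice. At 4 h, when 0.937% of all genes were called, 1 of the 9 VEGF-induced genes was lower and no gene of the other 3 lists passed. That gene, Esm1, fell from 39.6 ± 5.65 to 21.7 ± 5.46 CPM (log2 -0.87 ± 0.20, edgeR adjusted p = 0.0169). At 24 h, 2 of the 9 VEGF-induced genes were higher (Flt4 and Rcan1) and 1 lower, 1 of 16 signal transduction genes was higher and 1 lower, 1 of 11 other ligands and receptors was higher, and 2 of 13 hypoxia response genes were lower, against 6.41% of all genes called. The largest changes at 24 h were falls of Pgk1, a glycolytic enzyme (8.03 ± 6.66 to 0.697 ± 0.516 CPM, adjusted p = 0.031), Nr4a1, an immediate early nuclear receptor (5.197 ± 4.35 to 0.568 ± 0.906 CPM, 0.0309), Arnt, the partner of HIF proteins (19.4 ± 4.83 to 9.44 ± 3.90 CPM, 0.0341), and the kinase Src (25.4 ± 13.9 to 13.0 ± 4.55 CPM, 0.0289). At 72 h the counts were the same except that no VEGF-induced gene was higher, against 8.44% of all genes called. The same 4 genes had the largest changes, and Nr4a1 had no count in any sham mouse. Pgk1 has near-identical copies in the mouse genome, so its count is uncertain.

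For Kdr, the genes nearest in whole kidney were sought by the root mean square difference of the log2 change from healthy mice over the 6 operated groups, among the 10369 genes that averaged 5 CPM or more. The nearest were Lmo4 (0.0842), Rnf152 (0.0907) and Cc2d2a (0.0958). At 4 h after CLP, the mean log2 change from healthy mice was -0.80 for Kdr, -0.87 for Lmo4, -0.71 for Rnf152 and -0.80 for Cc2d2a.

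In the microdissected compartments Kdr passed once, in peritubular capillaries at 72 h. No other member passed with edgeR in any compartment at any time after CLP, and limma also called Kdr there and nothing else. Of all genes, edgeR called 0% at 4 h and 0.051% at 24 h in peritubular capillaries, and 0% and 0.0813% in venules. DESeq2 called Angpt2 in arterioles at 24 and 72 h and in venules at 72 h, and Flt1 in glomeruli at 24 h and in venules at 72 h. The share of all genes that DESeq2 called is not given. All CLP mice exceeded all sham mice for Tek, Kdr and Flt1 in glomeruli at 24 h and for Tek, Flt1 and Nrp1 in venules at 72 h, without passing in edgeR.

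Kdr in peritubular capillaries at 72 h stood at 149, 197, 221 and 241 CPM in sham mice and at 0, 0.103, 0.141 and 10.97 CPM in CLP mice. The groups were far apart, and the log2 fold change was -6.16 ± 1.67 (SE; edgeR adjusted p = 0.013). It was the 1 called of 8 members tested, in a comparison in which 22.3% of all genes were called, 20.5% in the lower direction, and the median log2 over all genes was -1.28. Kdr was also the only member without overlap (8.27% of all genes). The CLP libraries detected 2949 to 5595 genes and the sham libraries 7137 to 9816. Endothelial markers summed to 25.1 to 483 CPM in CLP mice and 453 to 800 CPM in sham mice, with 3 of 13 lower and 0 higher, and Cdh5, Erg, Robo4 and Sox18 had no count in any of these CLP libraries. The part of depth and endothelial content in the Kdr value was not tested. With the 8 libraries fitted alone the change was -6.20 (adjusted p = 0.327), and with healthy and 4 h mice fitted apart from 24 and 72 h mice it was -6.11 (0.121). It passed when any single mouse was left out, but its size rests on CLP mouse 2, the one at 10.97 CPM. Without that mouse it was -11.20 (edgeR adjusted p = 0.000101), and Tie1 passed too, while without any other single mouse it was -6.33 to -5.69. The remaining CLP libraries held 1, 1 and 0 counts of Kdr, all under the floor of 3 counts per library, and no count of Tie1. The value of -11.20 is therefore set by counts near 0 and is not a measured size.

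In the same capillaries Kdr stood at 106, 135, 223 and 232 CPM in sham mice and 14.3, 85.7, 94.5 and 165 CPM in CLP mice at 4 h, and at 58.1 to 153 and 0.141 to 205 CPM at 24 h. The groups overlapped at both times. The CLP change at 72 h was below that at 24 h by -6.02 on the log2 scale (edgeR adjusted p = 0.0362; 12.9% of all genes passed). Across the 4 compartments, the CLP change of Kdr differed at 72 h (edgeR adjusted p = 6.4e-05, 32 libraries of 8 mice, 1.48% of genes called). No other member differed at 72 h, and none differed at 4 h or 24 h (0.021% and 0.161% of genes called).

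In glomeruli at 4 h Kdr stood at 826, 1024, 1038 and 1211 CPM in sham mice and 488, 560, 708 and 1144 CPM in CLP mice, and Nrp1 at 797, 956, 1012 and 1098 CPM in sham mice and 470, 527, 808 and 810 CPM in CLP mice. Of the CLP mice, 3 lay below the sham range for Kdr and 2 for Nrp1. No member passed there at 4 h with edgeR (0.11% of genes called), although 2 members had an unadjusted p under 0.05, Tie1 and Nrp1 (share of all genes not given). On the same scale of 28 libraries, healthy mice stood at 1668, 1742, 1826 and 1923 CPM for Nrp1, above all operated mice at 4 h, with a log2 change of -0.89 ± 0.24 in sham mice that did not pass (adjusted p = 0.879; 0.00686% of genes called). Angpt1 and Nrp1 were the members without overlap between sham and healthy glomeruli at 4 h (3.29% of genes). Endothelial markers in glomeruli at 4 h summed to 3015 to 5610 CPM in CLP mice and 5053 to 6527 CPM in sham mice, and their part in the result was not tested.

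At 24 h CLP mice lay above sham mice in glomeruli for several receptors. Kdr stood at 1142, 1469, 1481 and 1716 CPM in sham mice and 1754, 1858, 2041 and 2174 CPM in CLP mice (log2 0.43 ± 0.26, edgeR adjusted p = 0.581), and its CLP change at 24 h exceeded that at 4 h by 0.93 ± 0.37 (adjusted p = 0.478; 0.00686% of genes passed). Flt1 stood at 219, 371, 385 and 396 CPM in sham mice and 456, 465, 613 and 775 CPM in CLP mice (log2 0.75 ± 0.28, adjusted p = 0.332 with edgeR and 0.0447 with DESeq2). Tek stood at 55.4, 58.0, 75.3 and 90.9 CPM in sham mice and 94.3, 109, 149 and 266 CPM in CLP mice (log2 1.15 ± 0.57, edgeR adjusted p = 0.404). These 3 of 10 members did not overlap, against 3.9% of all genes, and 0.137% of genes were called. Healthy glomeruli, on the scale of the 28 libraries, stood at 1144 to 1855 CPM for Kdr, 410 to 658 CPM for Flt1 and 36.2 to 131 CPM for Tek. For Flt1 the sham mice at 24 h thus lay below the healthy range, while the CLP mice overlapped it. No share of all genes is given for sham against healthy glomeruli at 24 h. Summed endothelial markers were 6023 to 8840 CPM in CLP mice and 5110 to 6459 CPM in sham mice, whose part was not tested. At 72 h Tek alone remained without overlap in glomeruli (41.2 to 109 CPM in sham and 112 to 174 CPM in CLP mice, log2 0.74 ± 0.57, adjusted p = 0.931; 2.85% of genes did not overlap and 0.0343% were called). Vegfa in glomeruli at 72 h was at 168, 174, 206 and 257 CPM in sham mice and 166, 390, 397 and 583 CPM in CLP mice, with 3 of 4 CLP mice above the sham range (log2 0.93 ± 0.35, adjusted p = 0.404).

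**Figure D5:**
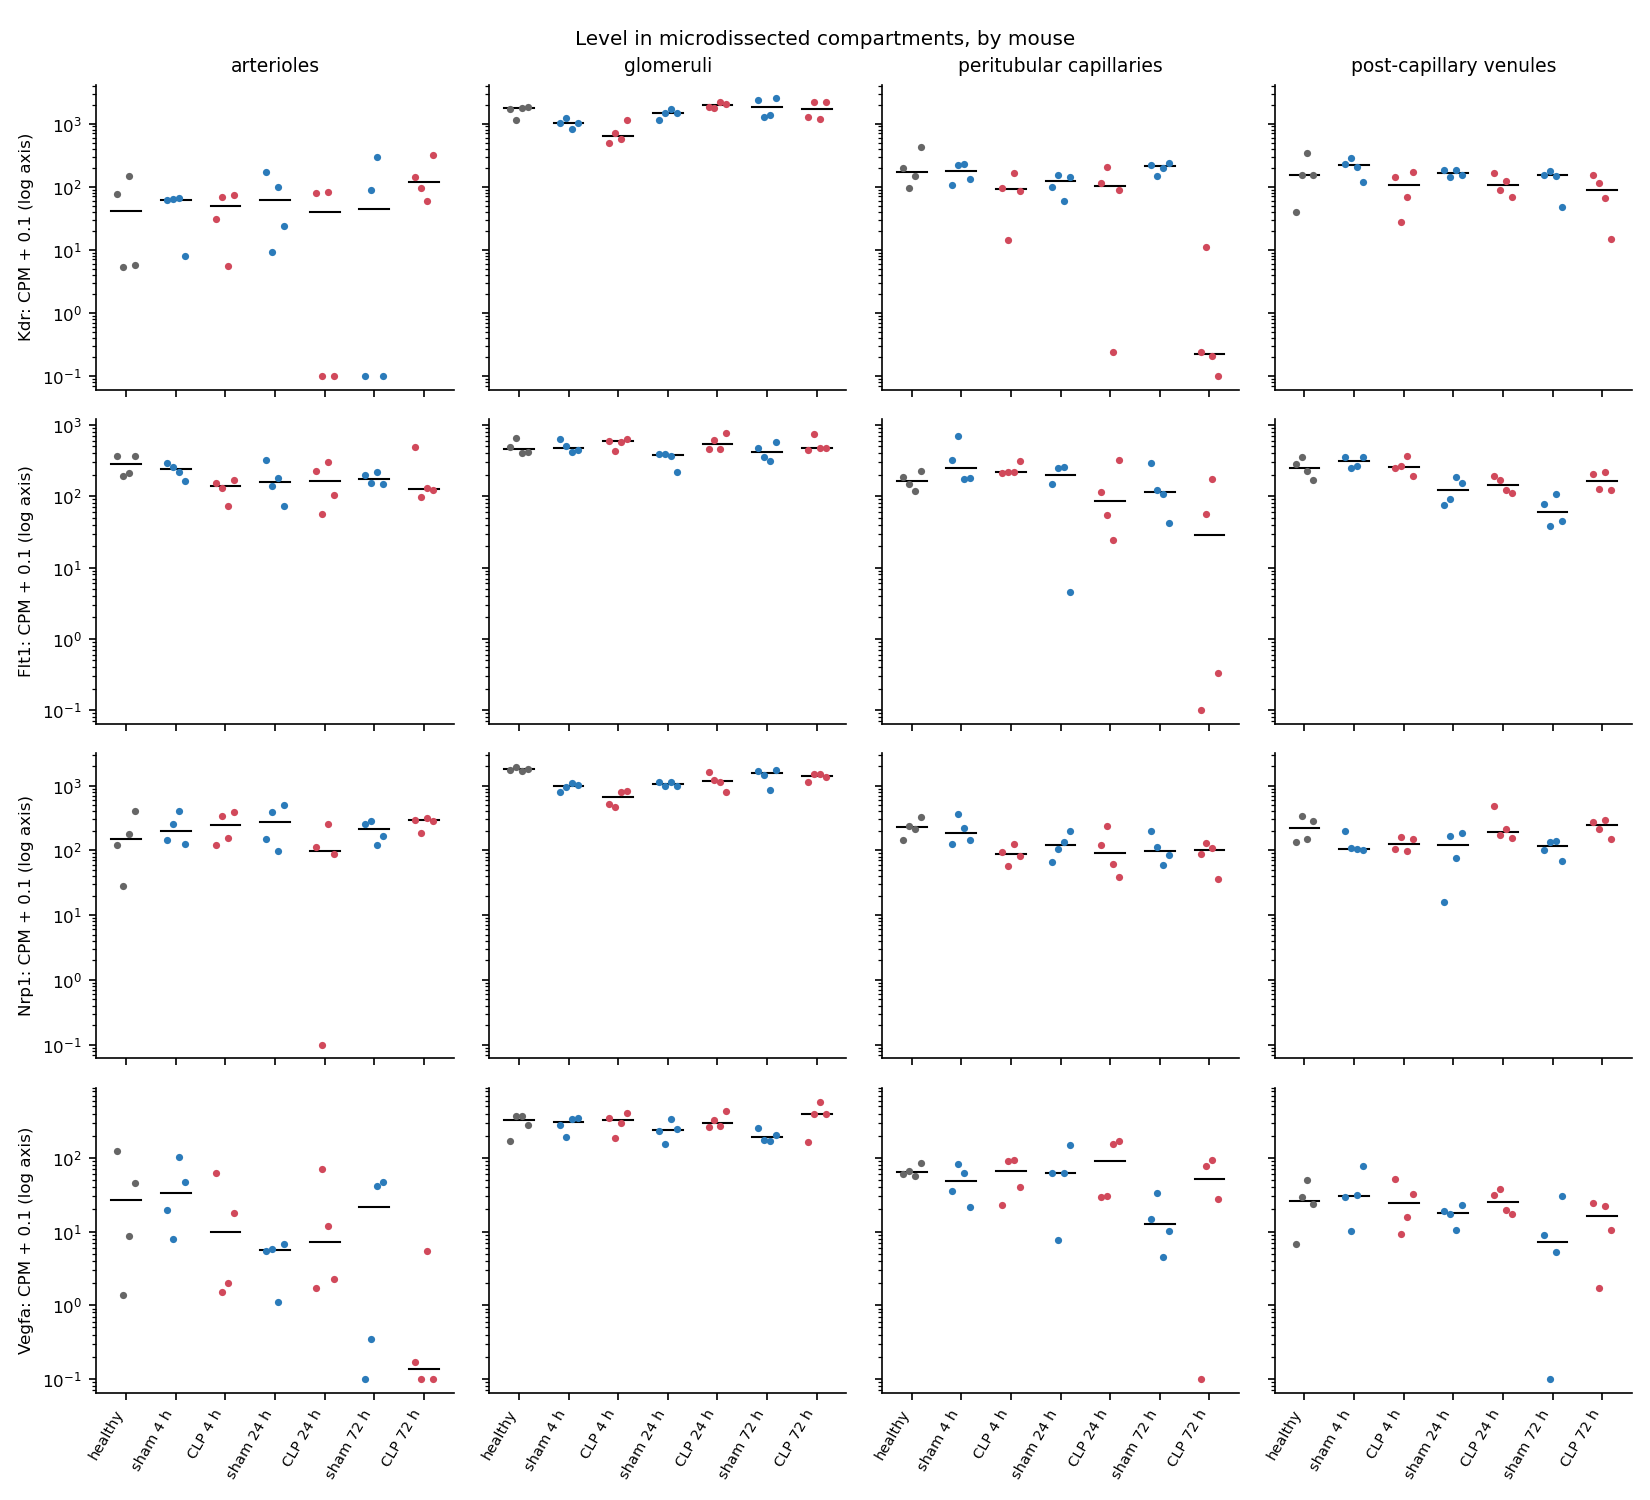
CPM of Kdr, Flt1, Nrp1 and Vegfa in the 4 microdissected compartments on log axes with 0.1 CPM added, by group and time in h, 1 point per mouse and black lines at the medians. Kdr in peritubular capillaries of CLP mice at 72 h lies at 0 to 10.97 CPM, below the sham mice at 149 to 241 CPM.

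In post-capillary venules at 72 h Flt1 stood at 37.7, 44.9, 77.0 and 108 CPM in sham mice and 122, 127, 203 and 215 CPM in CLP mice (log2 1.32 ± 0.44, adjusted p = 0.29 with edgeR and 0.00516 with DESeq2). Nrp1 stood at 67.7, 102, 134 and 142 CPM in sham mice and 147, 210, 276 and 291 CPM in CLP mice (log2 1.05 ± 0.50, edgeR adjusted p = 0.352). Tek stood at 0, 0, 23.3 and 28.3 CPM in sham mice and 33.3, 38.6, 66.1 and 84.2 CPM in CLP mice (log2 2.11 ± 1.66, 0.813). All 4 CLP mice exceeded all sham mice for these 3 of 10 members, against 2.53% of all genes, and 0.0443% of genes were called. Healthy venules, on the scale of the 28 libraries, stood at 136 to 340 CPM for Nrp1 and 14.1 to 33.5 CPM for Tek. The CLP values of Nrp1 thus lay within the healthy range. Endothelial markers summed to 833 to 1322 CPM in CLP mice and 638 to 1476 CPM in sham mice, ranges that overlap. Sham venules at 72 h also lay below healthy ones for Flt1 (168 to 355 CPM on the scale of the 28 libraries). The log2 change was -1.94 ± 0.44 (edgeR adjusted p = 0.0506), with 0.0739% of genes called and 6.59% without overlap. Healthy venule libraries had 12046 to 13728 genes with a count and sham ones at 72 h 8357 to 10850, and the median log2 over all genes was -0.31. The operation, the time and this difference between libraries cannot be told apart.

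Angpt2 in venules at 72 h had no count in any CLP mouse and stood at 0, 0.0841, 0.647 and 49.3 CPM in sham mice. The sham mean of 12.5 CPM, which rests almost wholly on 1 mouse, was at least 38.0-fold higher than in CLP mice, taken at the floor of 3 counts per library, 0.329 CPM, and the edgeR adjusted p was 0.29. Floors cover counting error only, since these reads are not known to be independent molecules.

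In arterioles no member passed with edgeR at 4 h, 24 h or 72 h after CLP (0.00821%, 0.0164% and 0% of all genes called), and 1 member had an unadjusted p under 0.05, Angpt2 at 72 h. Angpt2, which DESeq2 called at 24 and 72 h, had a count in 1 of 8 mice at each of these times. Flt1 there was at 163 to 295 CPM in sham mice and 72.1 to 166 CPM in CLP mice at 4 h, overlapping at the edge of the range. Tie1 was at 141 to 393 and 137 to 311 CPM. In peritubular capillaries at 4 h Nrp1 did not overlap (sham 126, 142, 224 and 358 CPM, CLP 56.9, 80.8, 94.4 and 126 CPM; log2 -1.25 ± 1.27, edgeR adjusted p = 1), although the nearest sham and CLP values were almost equal. It was the 1 of 8 members, against 3.28% of all genes.

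With the 4 compartments of a mouse summed, 0 of 10 members passed with edgeR at 4, 24 or 72 h (0.0832%, 0.541% and 0.428% of 16834 genes called). At an unadjusted p under 0.05 there were 2, 0 and 1 members, DESeq2 called 1 and limma 0, for which no share of all genes is given. The smallest adjusted p was that of Vegfa at 72 h (log2 1.15 ± 0.37, edgeR adjusted p = 0.187), the change that DESeq2 called. Kdr at 4 h gave -0.71 ± 0.27 (0.9), beside -0.62 ± 0.14 in whole kidney of the same mice.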

How the data were processed

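Libraries were made with a 3′ end kit (Lexogen QuantSeq), per the labels' protocols. The authors deposited read counts for Ensembl genes as whole numbers, without normalisation. The submitters' processing notes list STAR 2.7, HTSeq 0.13, featureCounts, SAMtools 1.9, FastQC 0.11.8 and MultiQC 1.7 beside the builds GRCm38.p6 and GRCm39. The role of each tool, the build used for counting and the handling of strand and duplicates are not given in the sources used here. Groups were taken from the labels, which put the healthy mice at 0 h, whereas the table writes 4 h for them. Positions are from GENCODE for GRCm38.

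In R 4.3.3, the 28 libraries of each compartment, or the 4 microdissected libraries of a mouse summed, were fitted with the quasi-likelihood test of edgeR 4.0.16 (robust, TMM scaling, filterByExpr by group, two-sided, no block), and a gene was called at an adjusted p under 0.05 (Benjamini-Hochberg, over all genes tested). The healthy compartments (16 libraries) and the comparison of compartments (32 libraries per time) had the mouse as a block. The Angpt2 to Angpt1 ratio was tested by exact permutation. Alternatives were the size factors of DESeq2 in edgeR, DESeq2 1.42.0, limma 3.58.1 (voom with sample weights), no filter, smaller sets of libraries, a replicate block and leaving out each mouse. The same alternatives for sham against healthy mice were chosen after seeing the data. Shares of all genes are given for edgeR calls and for most ranges without overlap, and not for unadjusted p-values, DESeq2 or limma. The procedure was tested on simulated counts.

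All 10 members are described. Of the other lists, up to 4 called genes with the largest change are named per whole-kidney comparison, and for a called member the 3 genes nearest to it. Esam, Ehd3, Pdpn, Prox1 and the endothelial genes with no count were named after their values were seen. The members, lists and tests were chosen with earlier results of these data known. A gene with no count is bounded at 3 counts per library.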

Additional observations from a re-analysis of the deposited data

Results flagged for a closer look

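In groups of 4 mice, a library was set apart where its gap to the nearest other mouse relative to the range of the group exceeded Dixon's 95% critical value. This was so in 8 of the 133 groups of member values checked, where chance alone gives about 1 in 20. In whole kidney these were Angpt2 in healthy mouse 3 (15.5 CPM, above the 3 others), and Vegfa (66.3 CPM), Vegfc (1.07 CPM) and Flt1 (114 CPM) in sham mouse 1 at 72 h, which was the highest of its group for all 3 genes. In glomeruli they were Flt1 in sham mouse 4 at 24 h (219 CPM, the lowest) and in CLP mouse 2 at 72 h (736 CPM, the highest). In peritubular capillaries they were Flt1 in CLP mouse 4 at 4 h (312 CPM, the highest) and Kdr in CLP mouse 2 at 72 h (10.97 CPM, where the 3 others had 0 to 0.141 CPM).

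The change of Kdr with CLP differed between the 4 microdissected compartments at 72 h (edgeR interaction test, adjusted p = 6.4e-05), where 1.48% of genes were called. In peritubular capillaries it differed between 72 h and 24 h by a log2 difference of -6.02 (edgeR adjusted p = 0.0362), where 12.9% of all genes passed. Both tests include the peritubular libraries of CLP mice at 72 h, which detected 2949 to 5595 genes. The median log2 of CLP against sham over all genes was -1.28 there, and the part of this in the Kdr values was not tested.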

How the results depend on the processing

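In whole kidney, 24 of the 27 changes of members with CLP (9 members at 3 times) kept their side of the threshold in every alternative, and the others were Kdr at 4 h, Flt1 at 24 h and Angpt2 at 24 h. The count of called members at 4 h was 1, and 0 to 1 when a mouse was left out. At 24 h it was 0, with 1 (Flt1) under DESeq2 and 0 to 1 with a mouse left out, and at 72 h it was 0 throughout. For sham against healthy mice the count at 4 h was 1, with 2 under limma, 0 without a filter and 0 to 1 with a mouse left out. At 24 h it was 1, with 0 without a filter and 0 to 1 with a mouse left out. At 72 h it was 2, with 1 under limma, without a filter or with the 8 libraries alone, and 0 to 1 with a mouse left out. Over the 3 times after CLP, DESeq2 called 2 changes in arterioles, 1 in glomeruli, 2 in venules and 1 in the summed compartments, where edgeR called 0 in each. In peritubular capillaries the count was 1, with 0 for the 8 libraries alone, 0 with early and late mice fitted apart, and 1 to 2 with a mouse left out. In the healthy compartments it was 6, with 7 without the replicate block, and 3 to 5 with a mouse left out. The Angpt2 to Angpt1 log2 difference at 24 h ran from -1.71 to -0.82 with a mouse left out. The cause of these differences was not tested. With early and late mice fitted apart, sham mice at 24 and 72 h cannot be compared with healthy mice, and no value was computed.

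Replicate numbers were not used to pair the mice, since the same number in different groups stands for different mice. Of 12 pairs of CLP and sham whole-kidney libraries with the same number, 5 correlated above 0.1 (range -0.14 to 0.47), and 5 correlated best with their own number. All of these were at 24 or 72 h, while at 4 h the correlations were -0.14 to -0.02. Whether libraries with the same number share something at the later times is not settled by these values. With a replicate block, Kdr in whole kidney at 4 h gave -0.64 (edgeR adjusted p = 0.00194), Kdr in peritubular capillaries at 72 h gave -7.10 (0.0147), and no count of called members changed. The sign-flip test of the paired ratio gave an exact p of 0.125 at 4 h, 0.125 at 24 h and 0.25 at 72 h, and 4 pairs cannot go below 0.125. Precision was limited by the spread between libraries of a group, with a coefficient of variation of 0.241 in whole kidney and 1.40 to 1.94 in the microdissected compartments. The same mice gave both, and differences between mice and between the samples cut from them were not separated.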
